A study of Homo sapiens with 6 samples.

Results

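The 46 genes described here are those of the heat shock response and the unfolded protein response, 2 programmes by which a cell adjusts its protein folding capacity. They were chosen by name, each matched to 1 Ensembl gene ID among the 58051 genes of the count table, and divided by role into 17 genes of the cytosolic heat shock response, 3 mitochondrial chaperone genes, 16 genes of the endoplasmic reticulum (ER) and 10 genes of the ATF4 branch. The cells were A375, a long-established melanoma cell line of human origin with mutant BRAF. They were starved for 2 h. For the next 2 h they received 10 ng/mL of human recombinant TGFB1 (TGFB1 group) or only the solution it was dissolved in, HCl at 4 mM and BSA at 1 mg/mL (Vehicle group), with 3 libraries per group. The labels' protocol has ribosomal RNA depleted before library preparation, whereas their molecule field gives polyA RNA, and which holds cannot be told from the sources used here. Since the submitters call the libraries technical triplicates of 1 cell line, the p-values measure only the spread between these libraries.

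In the cytosol, unfolded protein releases the transcription factor HSF1 from its chaperones, and HSF1 then binds heat shock elements in front of the HSP70, HSP90, HSP40 and small heat shock protein genes. In the ER, the sensors IRE1 (gene ERN1), ATF6 and PERK (gene EIF2AK3) respond to unfolded protein. IRE1 splices the mRNA of XBP1, and ATF6 is cut to a free transcription factor. Both then raise ER chaperone and degradation genes. PERK phosphorylates the translation factor eIF2-alpha, which favours translation of ATF4, an activator of amino acid synthesis, transport and stress genes. Activation of HSF1, ATF6, IRE1, PERK and ATF4 acts mainly on the protein or on splicing, which counts per gene do not show, so the mRNAs of the target genes are the readout here.

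The response elements of the 3 programmes are shown for some of the genes whose levels are compared below, and many of those genes had no match. RefSeq promoters (GRCh38.p14, 250 bases before to 50 after the start) were found for 44 of the 46 genes and searched on both strands. Positions are counted from the start, with -1 the base before it, and capitals mark the match. The heat shock element was searched as GAANNTTCNNGAA, with 3 units, and as the 2-unit forms GAANNTTC and TTCNNGAA, which lie within the 3-unit form. The 3-unit form was found in 0.49% of all 35116 promoters and a 2-unit form in 13.5%, against 2 and 8 of the 44 genes here. The ER stress element, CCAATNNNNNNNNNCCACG, was found in 0.0769% of promoters and in 4 of the 44, all of them ER genes. The element bound by ATF4 with C/EBP proteins, TGATGNAA, was found in 3.62% of promoters and in 3 of the 44. In ASNS the match overlaps one to GAANNTTC. A match is a run of letters, not a measured binding site. Of the matches printed below, those in HSPA8, ASNS and CHAC1 overlap exons of these genes in GENCODE 29, and the others do not. The heat shock elements of the 2 near-identical inducible HSP70 genes HSPA1A (chr6:31815426-31815455, plus strand) and HSPA1B (chr6:31827622-31827651, plus strand) and the nearer of the 2 in the constitutive HSP70 gene HSPA8 (chr11:123062171-123062199, minus strand, where the 3-unit match lies on the other strand) were:
HSPA1A: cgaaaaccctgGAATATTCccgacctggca
HSPA1B: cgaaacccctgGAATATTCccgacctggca
HSPA8: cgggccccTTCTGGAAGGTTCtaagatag
The ER stress elements of HSPA5 (chr9:125241380-125241420, minus strand), XBP1 (chr22:28800598-28800632, minus strand) and CRELD2 (chr22:49918543-49918583, plus strand, where the match lies on the other strand) were:
HSPA5: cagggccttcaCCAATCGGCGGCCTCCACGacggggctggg
XBP1: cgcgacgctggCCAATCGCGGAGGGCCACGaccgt
CRELD2: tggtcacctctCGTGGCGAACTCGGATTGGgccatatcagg
The matches to the ATF4 and C/EBP element in ASNS (chr7:97872458-97872487, minus strand), CHAC1 (chr15:40953251-40953280, plus strand) and HERPUD1 (chr16:56931955-56931984, plus strand), the last 2 on the other strand, were:
ASNS: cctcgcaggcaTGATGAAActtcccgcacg
CHAC1: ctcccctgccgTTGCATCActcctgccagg
HERPUD1: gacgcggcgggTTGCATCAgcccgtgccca

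Levels are given as CPM, each library's counts brought to a common total and scaled by TMM, which corrects for the make-up of each library. Library totals ran from 24713894 to 34895075 counts, and Vehicle replicate 1, the shallowest, lay farthest out on the first principal component (-37.1, against -13.4 and -8.25 for the other Vehicle libraries and 17.7 to 20.7 with TGFB1). The mitochondrial genome took 2.20% of its counts, 1.28% and 0.769% in Vehicle replicates 2 and 3, and 0.553% to 0.898% with TGFB1. The part of these differences in the results below was not tested, and leaving out each library is given beside the calls. SMAD7, a feedback inhibitor of TGF-beta signalling, was at 7.81, 8.84 and 11.2 CPM in Vehicle and 63.6, 57.1 and 62.6 CPM with TGFB1, with no overlap. Of the melanocyte lineage markers, SOX10 had 0 counts in all 6 libraries and TYR at most 0.154 CPM. Of the exonic bases of SOX10, 2.4% lie under POLR2F on the opposite strand. With the counting mode, strand setting and annotation release not given, 0 counts need not mean that SOX10 mRNA was absent. S100B was at 58.9 ± 5.74 CPM in Vehicle (SD, n = 3). MITF was at 62.7 ± 3.02 CPM in Vehicle and fell to 53.5 ± 2.01 CPM with TGFB1 (SD, n = 3 each, log2 fold change -0.23, adjusted p = 0.0355 by edgeR). Markers of leukocytes, endothelium, epithelium, keratinocytes and fibroblasts (PTPRC, PECAM1, EPCAM, KRT5 and COL3A1) stayed at or below 0.655 CPM in each library.

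The folding machinery was abundant in both groups. Per length of exon, in RPKM (CPM per kilobase, mean over 6 libraries), the most abundant of the 46 was HSPA8, the constitutive cytosolic HSP70, at 434 ± 22.1 (SD, n = 6), and HSP90AB1, the constitutive cytosolic HSP90, followed at 404 ± 32.5 RPKM. Their library ranges overlapped (407 to 456 and 352 to 444), so their order is not settled. HSPD1, the mitochondrial HSP60, stood at 290 ± 9.75 RPKM, apart from its neighbours. The inducible HSP90 gene HSP90AA1 (200 ± 12.5 RPKM) and the ER HSP90 gene HSP90B1 (195 ± 4.40) overlapped. ATF4 came next at 146 ± 4.71 RPKM, the highest of its branch and above 97.9% of tested genes. HSPA5, which encodes the main ER HSP70, BiP, stood at 56.1 ± 3.63 RPKM, below the disulfide isomerase genes PDIA6 (78.3 ± 1.57) and PDIA4 (71.2 ± 2.43), with no overlap between these 3. The genes most used as signs of acute heat shock were low per length, HSPA1B at 4.53 ± 0.733 and HSPA1A at 4.05 ± 0.701 RPKM. Since 71.3% of the 50-base windows of HSPA1A and 71.4% of those of HSPA1B occur in the other gene, reads there may have been left out of the counts, and these levels may be too low. At the bottom were HSPA2 (0.419 ± 0.104 RPKM), an HSP70 best known from testis, and CRYAB (0.0935 ± 0.0476 RPKM), the alpha-B-crystallin gene, with 2 to 15 counts per library. Of the 45 neighbouring pairs in this order, 34 had overlapping ranges. The ranges cover only the spread between libraries. They leave out any error in the exon length used for each gene, so ranges that stand apart do not settle the order either.

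**Figure D1:**
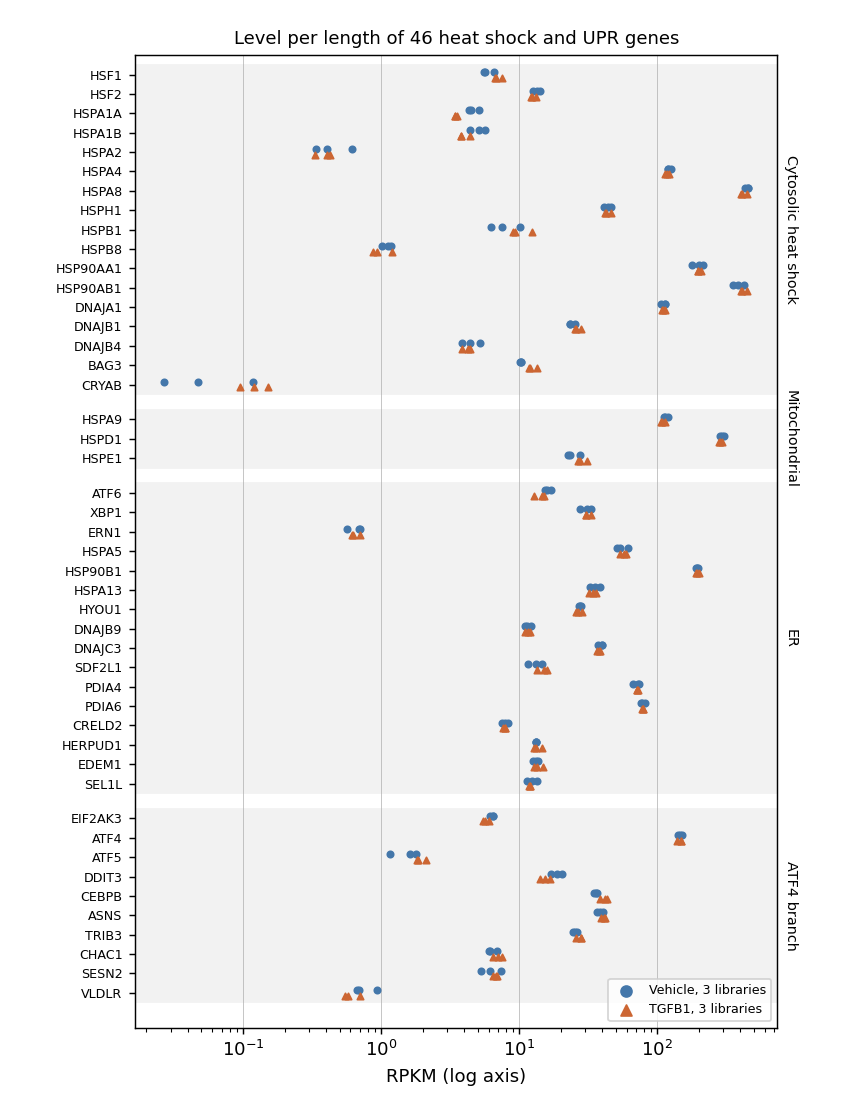
Level of each of the 46 genes in RPKM on a log axis, 1 point per library (circles, Vehicle; triangles, TGFB1; 3 libraries each), grouped by role. The levels span from CRYAB at 0.0935 to HSPA8 at 434 RPKM, and on so wide an axis the libraries of the groups lie close together for most genes. Changes as small as those called below are hard to see on it.

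Summed over its members, each group of genes kept nearly the same share of the libraries with TGFB1. The 46 genes together held 11810 ± 274 CPM in Vehicle and 11707 ± 209 CPM with TGFB1 (SD, n = 3 each), 1.18% of the counts. The 17 cytosolic genes held 5663, 5981 and 6066 CPM in Vehicle and 5746, 5955 and 5938 CPM with TGFB1, and the 16 ER genes held 2836, 2903 and 2823 against 2777, 2866 and 2853 CPM. The 3 mitochondrial genes held 2197, 2331 and 2225 against 2137, 2242 and 2141 CPM. In all 3 sums the groups overlapped. The most abundant genes weigh most in a sum. HSPA8 averaged 2103 CPM and HSPD1 1233 CPM over all libraries, against 10.1 CPM for HSPA1A and 52.6 CPM for HSPE1. A level sum therefore does not show that each member was level. The 10 ATF4 branch genes held 805, 808 and 794 CPM in Vehicle and 817, 823 and 825 CPM with TGFB1, so that every TGFB1 library was above every Vehicle library, and their mean was 102.4% of the Vehicle mean. ATF4, the most abundant of the 10, had a mean of 367.5 CPM in Vehicle and 366.2 CPM with TGFB1, while the mean of CEBPB was 69.8 against 81.0 CPM, that of ASNS 171.7 against 180.7 CPM and that of TRIB3 87.5 against 93.7 CPM. In bulk RNA, fewer cells with a transcript and less of it per cell cannot be told apart.

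**Figure D2:**
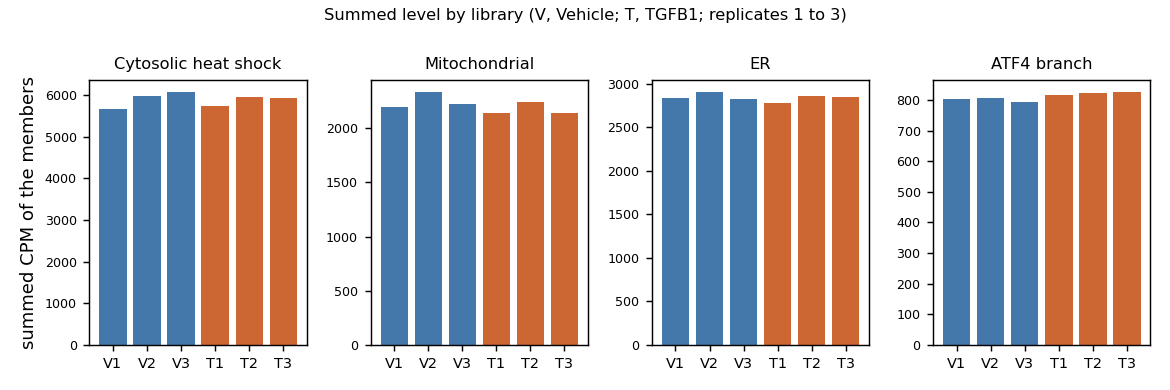
Summed CPM of the members of each group of genes in each library (V, Vehicle; T, TGFB1; bars start at 0). The bars of the cytosolic and ER genes are level across libraries, and the 3 TGFB1 bars of the ATF4 branch (817 to 825 CPM) are slightly above the 3 Vehicle bars (794 to 808 CPM).

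All 46 genes passed the filter on low counts and were tested with edgeR's quasi-likelihood test, with Benjamini-Hochberg adjustment over all 16690 genes tested. At an adjusted p under 0.05, 2 rose with TGFB1, BAG3 and CEBPB, and 1 fell, HSPA1A. That is 6.52% of the 46, against 3.31% of all genes tested (2.43% higher and 0.887% lower). For 8 of the 46 (17.4%) every library of one group lay above every library of the other, as for 16.4% of all genes tested. The median log2 fold change of the 46 was -0.006, and that of all genes tested -0.007. At an unadjusted p under 0.05 there were 13 of 46 (28.3%), against 12.3%, with 7 higher and 6 lower. By DESeq2 the same 3 genes were called, and by limma-voom 0 were called. The counts turned on single libraries: 9 of the 46 were called without Vehicle replicate 3, 2 without TGFB1 replicate 2, and 0 when either of the other Vehicle libraries (replicates 1 and 2) or either of the other TGFB1 libraries (replicates 1 and 3) was left out. Over all genes the count without Vehicle replicate 3 was 923 and without TGFB1 replicate 1 it was 365, against 553.

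**Figure D3:**
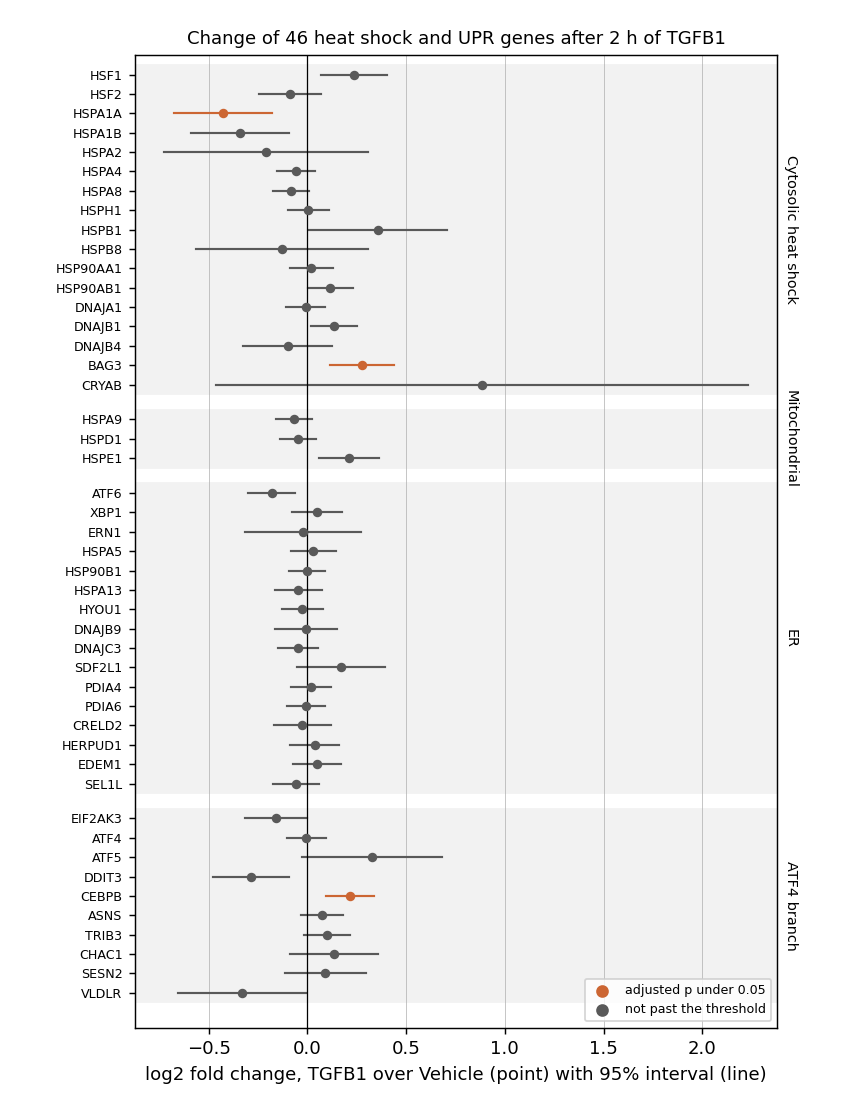
Log2 fold change of each of the 46 genes (point) with its 95% interval (line), TGFB1 over Vehicle, n = 3 libraries each, grouped by role, with genes past an adjusted p of 0.05 in orange. The ER genes lie close to 0 with short intervals, HSPA1A lies at -0.43, BAG3 at 0.27 and CEBPB at 0.21, and CRYAB has the widest interval.

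Among the 17 cytosolic genes, 1 rose, 1 fell and 15 did not pass, so that 11.8% were called, against 3.31% of all genes tested. At an unadjusted p under 0.05 by edgeR there were 7 (41.2%), 5 higher and 2 lower, against 12.3% of all genes tested. The factor itself, HSF1, was at 29.6, 30.2 and 34.8 CPM in Vehicle and 40.2, 35.3 and 36.1 CPM with TGFB1. Every TGFB1 library was above every Vehicle library, but the difference did not pass (log2 fold change 0.24 ± 0.08 (SE), adjusted p = 0.132 by edgeR). It did pass without Vehicle replicate 3 (adjusted p = 0.013), and the range without 1 library was 0.013 to 0.62. HSF2, a second heat shock factor that can pair with HSF1, was at 34.0, 36.2 and 38.5 against 33.0, 35.5 and 33.8 CPM, with overlapping groups (-0.09 ± 0.08, adjusted p = 0.725).

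The inducible HSP70 genes HSPA1A and HSPA1B were lower with TGFB1 in their means. HSPA1A (chr6:31815464-31817946, GENCODE 29 on GRCh38) was at 11.1, 12.6 and 10.8 CPM in Vehicle and 8.74, 8.49 and 8.48 CPM with TGFB1, on 272 to 385 counts per library. The groups did not overlap, and the gene fell by 0.43 on the log2 scale (SE 0.12, adjusted p = 0.0434 by edgeR), a change of -25.7%. HSPA1B (chr6:31827735-31830255) was at 11.1, 13.0 and 14.2 CPM in Vehicle and 11.2, 9.59 and 9.52 CPM with TGFB1. Here the groups overlapped, and the log2 fold change of -0.34 ± 0.12 (SE) did not pass (adjusted p = 0.154). These genes cannot be counted apart with confidence: of the 50-base windows of HSPA1A's transcripts, 71.3% also occur in HSPA1B, and the counting mode is not given in the sources used here. Their promoters are alike too, with 94.4% of 249 aligned bases identical. Added together as 1 gene, a step chosen after seeing the data, they were at 22.2, 25.6 and 25 CPM in Vehicle and 19.9, 18.1 and 18 CPM with TGFB1. The sum was lower by 0.38 on the log2 scale (SE 0.09, adjusted p = 0.0107 by edgeR). This summed fit was not repeated without single libraries, with other scalings or filters, or with other tools. Reads from the shared stretches may be missing from the sum or counted for both genes. The call of HSPA1A alone was lost without any library but Vehicle replicate 3 (adjusted p = 0.0615 to 0.263), and with total-count scaling (0.0616), no low-count filter (0.0608) and limma-voom (0.0576). In all of these its log2 fold change stayed between -0.47 and -0.35.

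BAG3 encodes a co-chaperone that binds HSP70 and small heat shock proteins and feeds their clients to autophagy. It lies on chromosome 10 (chr10:119651370-119677819) and shares no 50-base window with another gene. Its level was 27.9, 28.2 and 28.4 CPM in Vehicle and 32.9, 32.3 and 36.9 CPM with TGFB1, with no overlap, and it rose by 0.27 ± 0.08 (SE) on the log2 scale, or 20.9% (adjusted p = 0.0499 by edgeR). This stands just inside the threshold. The call was lost without any library but Vehicle replicate 3 (adjusted p = 0.0528 to 0.408), and with total-count scaling (0.0571) and limma-voom (0.0646). BAG3 and HSPA1A are both known targets of HSF1, and in these libraries one rose and the other fell. No promoter match to either heat shock form was found for BAG3 in the window searched.

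The abundant constitutive chaperones did not pass, and their intervals were narrow. HSPA8 was at 2198, 2211 and 2084 CPM in Vehicle and 1972, 2169 and 1982 CPM with TGFB1, a log2 fold change of -0.08 with a 95% interval from -0.18 to 0.01. HSP90AB1 was at 1050, 1142 and 1271 against 1221, 1209 and 1324 CPM, with an interval from 0.00 to 0.23. In both the groups overlapped, and within Vehicle HSP90AB1 was lowest in replicate 1. HSP90AB1 passed without Vehicle replicate 3 (adjusted p = 0.01). HSP90AA1 (0.02), the HSP110 gene HSPH1 (0.00), HSPA4 (-0.06) and the HSP40 gene DNAJA1 (-0.01) had log2 fold changes within 0.1 of 0. Their 95% intervals reached at most from -0.152 (HSPA4) to 0.127 (HSP90AA1). DNAJB1, the stress-inducible HSP40 that works with HSPA1A, was at 85.7, 86.3 and 93.1 CPM in Vehicle and 103.2, 95 and 93.0 CPM with TGFB1 (0.13 ± 0.06 (SE), adjusted p = 0.302). HSPB1, which encodes the small heat shock protein HSP27, varied more: 10.3, 12.2 and 16.6 CPM in Vehicle against 20.3, 14.8 and 15.4 CPM with TGFB1 (0.36 ± 0.16, adjusted p = 0.389). It was called without Vehicle replicate 3 (adjusted p = 0.00201) and with no low-count filter (0.0402). DNAJB4, another HSP40 gene, had a log2 fold change of -0.10 (interval -0.33 to 0.12). For HSPA2 (-0.72 to 0.31), HSPB8 (-0.56 to 0.30) and CRYAB (-0.46 to 2.23) the intervals were wide.

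The 2 HSP90 genes of the cytosol and HSPA8 share sequence with other genes. Of their 50-base windows, 16.6% in HSP90AB1, 14% in HSP90AA1 and 8.23% in HSPA8 occur in other genes, the largest shares in HSP90AB3P, HSP90AA2P and HSPA8P1. Of the exonic bases of CRYAB, 20.6% lie under other genes on the opposite strand, HSPB2 among them. Their counts are uncertain to that extent.

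Of the 3 mitochondrial chaperone genes 0 passed, and 1 had an unadjusted p under 0.05 by edgeR. By DESeq2 and limma-voom 0 passed as well. HSPD1, the HSP60 that folds proteins in the matrix, was at 1213, 1303 and 1246 CPM in Vehicle and 1199, 1246 and 1192 CPM with TGFB1 (log2 fold change -0.05, 95% interval -0.14 to 0.04). HSPA9, the matrix HSP70 mortalin, was at 938, 983 and 923 against 884, 934 and 896 CPM (-0.07, interval -0.16 to 0.02). In both the groups overlapped. HSPE1, the HSP10 lid of HSP60, was at 46.3, 44.9 and 54.9 against 54.3, 61.7 and 53.2 CPM (0.21 ± 0.08 (SE), adjusted p = 0.16). It passed without Vehicle replicate 3 (adjusted p = 0.00414). HSPD1 and HSPE1 stand head to head and share a promoter region. HSPE1 had 26.6 ± 3.13 RPKM against 290 ± 9.75 RPKM for HSPD1. Of the exonic bases of HSPE1, 23.9% are shared with HSPD1 on the opposite strand or HSPE1-MOB4 on the same strand. Reads there may have been left out of the counts, so the level of HSPE1 may be too low. Of the windows of HSPE1, 22.7% occur in other genes (11% in HSPD1), and of those of HSPD1 18.4% do.

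The 16 ER genes gave the flattest picture. None was called by edgeR, DESeq2 or limma-voom, 1 had an unadjusted p under 0.05 by edgeR (ATF6), and 14 had a log2 fold change within 0.1 of 0. For 13 of the 16 (81.2%) the whole 95% interval lay within 0.2 of 0, against 22.2% of all genes tested. Abundant genes, as many of these are, have more counts and so narrower intervals. The median log2 fold change of the 16 was -0.008.

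Among the sensors, ATF6 was at 134.1, 126.0 and 121.5 CPM in Vehicle and 101.9, 119.6 and 114.7 CPM with TGFB1. Every TGFB1 library was below every Vehicle library, the lowest being TGFB1 replicate 1, and the difference did not pass (-0.18 ± 0.06 (SE), adjusted p = 0.0985 by edgeR). Leaving out 1 library gave adjusted p-values from 0.023 to 0.666, and the difference passed when that library was Vehicle replicate 3 (0.023) or TGFB1 replicate 2 (0.0457). ERN1, the IRE1 gene, was low at 6.18, 7.69 and 7.56 against 7.61, 6.73 and 6.82 CPM, with overlapping groups (-0.02, 95% interval -0.32 to 0.27). XBP1, whose total mRNA is counted here without regard to its spliced form, was at 99.5, 94.1 and 83.1 against 93.0, 100.3 and 92.4 CPM (0.05, interval -0.08 to 0.17).

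The ER chaperone and degradation genes were level. HSP90B1, which encodes GRP94, was at 889, 934 and 919 CPM in Vehicle and 894, 939 and 905 CPM with TGFB1, with a 95% interval of the log2 fold change from -0.09 to 0.09. PDIA6 was at 319.6, 331.9 and 313.8 against 315.5, 322.8 and 322.3 CPM (interval -0.10 to 0.09), though 22.4% of its windows also occur in ATP6V1C2. HSPA5, the ER gene read most often as a sign of the unfolded protein response, was at 201.4, 211.3 and 238.3 CPM in Vehicle and 209.7, 222.9 and 231.8 CPM with TGFB1 (0.03, interval -0.09 to 0.14). In each of these the groups overlapped, and for HSPA5 the spread within Vehicle was larger than the distance between the means. The 4 genes with an ER stress element in the window searched, HSPA5, HSP90B1, XBP1 and CRELD2, had log2 fold changes from -0.03 to 0.05. The HSP110-like gene HYOU1 (-0.03), the co-chaperone genes DNAJB9 (-0.01) and DNAJC3 (-0.05), HSPA13 (-0.05) and the isomerase gene PDIA4 (0.02) were within 0.1 of 0 as well. So were the degradation genes HERPUD1 (0.04), EDEM1 (0.05) and SEL1L (-0.06). SDF2L1, which helps BiP and is sharply induced by ER stress, was at 14.4, 12.8 and 16.2 against 16.7, 14.8 and 17.4 CPM (0.17, interval -0.05 to 0.39), with overlapping groups and the least precision after ERN1. Under total-count scaling or with no low-count filter HSP90B1 and PDIA6 changed sign, and with no filter DNAJB9 did too, all at values within 0.01 of 0.

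Of the 10 genes of the ATF4 branch 1 rose, CEBPB, and 9 did not pass, so that 10.0% were called, against 3.31% of all genes tested. At an unadjusted p under 0.05 by edgeR there were 4 (40.0%), 1 higher and 3 lower, against 12.3% of all genes tested. In 4 of the 10 the groups stood fully apart, with 2 higher (CEBPB and ATF5) and 2 lower (DDIT3 and EIF2AK3), against 16.4% of all genes tested. EIF2AK3, the PERK gene, was at 33.5, 35.1 and 35.2 CPM in Vehicle and 29.5, 32.6 and 30.8 CPM with TGFB1 (-0.16 ± 0.08 (SE), adjusted p = 0.391 by edgeR), and 15.1% of its exonic bases lie under other genes on the opposite strand. ATF4 was at 381.6, 364.9 and 355.9 against 351.0, 371.4 and 376.3 CPM, with overlapping groups, a log2 fold change of -0.005 and an interval from -0.10 to 0.09. It was 0.0033 under total-count scaling. Of its windows 17.9% occur in other genes, 11.5% in the pseudogene ATF4P3.

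CEBPB encodes C/EBP-beta, a partner of ATF4 that also acts in inflammation and differentiation. It lies on chromosome 20 (chr20:50190734-50192689) and was at 67.6, 70.0 and 71.7 CPM in Vehicle and 84.9, 75.7 and 82.4 CPM with TGFB1. The groups did not overlap, and it rose by 0.21 ± 0.06 (SE) on the log2 scale, or 16.1% (adjusted p = 0.0365 by edgeR). The call held when Vehicle replicate 3 or TGFB1 replicate 2 was left out. It was lost without Vehicle replicate 1 (0.133) or 2 (0.123), without TGFB1 replicate 1 (0.297) or 3 (0.189), and with limma-voom (0.0608). Of its exonic bases 11.8% lie under CEBPB-AS1 on the other strand, so its count is uncertain to that extent. CEBPB-AS1 itself had 1.80 ± 0.680 CPM in Vehicle against 2.28 ± 0.0744 CPM with TGFB1 (SD, n = 3 each).

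DDIT3, which encodes CHOP, the factor linked to death under lasting ER stress, moved the other way in its means. It was at 26.9, 24.7 and 22.4 CPM in Vehicle and 21.9, 19.99 and 18.6 CPM with TGFB1. Every TGFB1 library was below every Vehicle library, but TGFB1 replicate 1 and Vehicle replicate 3 were close, and the difference did not pass (-0.29 ± 0.09 (SE), adjusted p = 0.102 by edgeR). It passed without Vehicle replicate 3 (adjusted p = 0.0188). Of the exonic bases of DDIT3, 31.6% lie under MARS1 and MBD6 on the other strand, so its count is uncertain. ATF5, a relative of ATF4, was at 3.44, 4.76 and 5.31 CPM in Vehicle and 6.24, 5.46 and 5.41 CPM with TGFB1 (0.33 ± 0.17, adjusted p = 0.469), and 16.3% of its windows occur in NUP62.

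**Figure D4:**
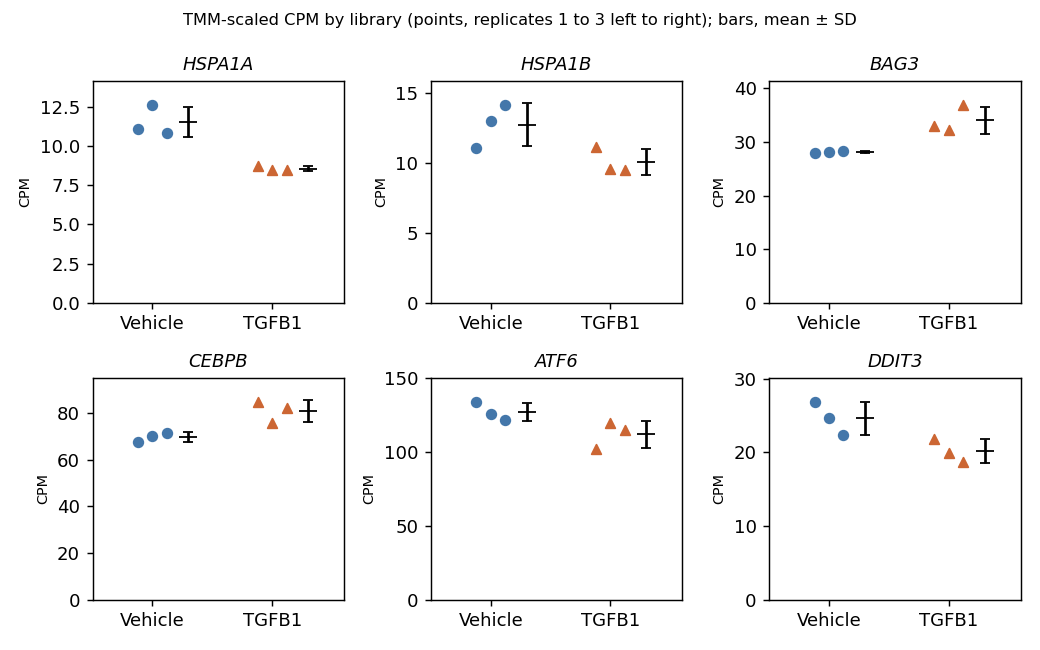
TMM-scaled CPM of HSPA1A, HSPA1B, BAG3, CEBPB, ATF6 and DDIT3 in each library (points, replicates 1 to 3 from left to right) with the mean ± SD of 3 libraries beside them. The groups are apart in all but HSPA1B, and the gap between the nearest libraries is small beside the spread for ATF6 and DDIT3.

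The targets by which ATF4 activity is usually read did not pass. ASNS, the asparagine synthetase gene with the element shown above, was at 163.8, 179.4 and 171.8 CPM in Vehicle and 182.4, 184.9 and 174.7 CPM with TGFB1 (0.07, 95% interval -0.03 to 0.18). The pseudokinase gene TRIB3 had a log2 fold change of 0.10, the glutathione-degrading enzyme gene CHAC1 0.14 and the stress sensor gene SESN2 0.09, with overlapping groups in each. VLDLR, a lipoprotein receptor gene induced by PERK and ATF4, was at 6.22, 6.47 and 8.68 against 6.58, 5.37 and 5.13 CPM (-0.33 ± 0.16 (SE), adjusted p = 0.394). These 4 pointed up and 1 down in sign, none beyond the test.

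The same pathways were then read in other genes, listed by role. Of 45 tested cytosolic and mitochondrial chaperone genes (of 48 listed) 0 passed, against 3.31% of all genes tested. At an unadjusted p under 0.05 by edgeR there were 6 (13.3%), against 12.3% of all genes tested. The median log2 fold change was -0.014. The chaperonin subunit gene CCT2, among the most abundant of them per length (255 RPKM), had a log2 fold change of -0.03. Of 40 tested ER genes (of 41 listed) 0 passed, against the same 3.31%. At an unadjusted p under 0.05 by edgeR there were 4 (10.0%), against the same 12.3%, and the median was -0.013. The lectin chaperone genes CALR (249 RPKM) and CANX (227 RPKM) had log2 fold changes of -0.08 and -0.07. DESeq2 and limma-voom also called 0 in both lists. The nearest to the threshold among the ER genes was P4HB, chosen after its value was seen, which encodes a disulfide isomerase (0.18, adjusted p = 0.0582 by edgeR).

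In the list of 45 tested ATF4 branch genes (of 46 listed) 1 rose and 3 fell, 8.89% against 3.31% of all genes tested, with a median of 0.009. At an unadjusted p under 0.05 by edgeR there were 10 (22.2%), 7 higher and 3 lower, against 12.3% of all genes tested. ATF3, a stress-induced factor that lies downstream of ATF4 but also of many other signals, was at 20.9, 19.1 and 17.0 CPM in Vehicle and 45.1, 52.2 and 46.8 CPM with TGFB1 (1.34 ± 0.09 (SE)). DDIT4, an inhibitor of mTORC1 signalling, fell from 110.7, 113.1 and 105.6 to 78.5, 78.0 and 78.2 CPM (-0.49 ± 0.06). Of its exonic bases 41.2% lie under DDIT4-AS1 on the other strand, so its count is uncertain, as it is to a lesser extent for SLC7A11 (8.97% under SLC7A11-AS1). SLC38A2, a transporter of neutral amino acids, fell from 1190, 1206 and 1118 to 971, 991 and 992 CPM (-0.25 ± 0.04), and the cystine transporter gene SLC7A11 from 356.5, 371.3 and 323.3 to 314.6, 294.4 and 282.4 CPM (-0.24 ± 0.05). Their adjusted p-values by edgeR were 7.77e-14, 6.86e-08, 0.000256 and 0.00497. In each of the 4 the groups did not overlap, and 3 of the 4 lay below Vehicle. Over the whole list the groups stood fully apart in 11 of 45 genes (24.4%), 7 higher and 4 lower, against 16.4% of all genes tested. ATF4, ASNS and TRIB3 did not pass in either direction. Whether ATF4 had a part in the changes of the 4 called genes was not tested. The SLC7A11 call was lost without Vehicle replicate 2 (0.11) or TGFB1 replicate 3 (0.0871). Without Vehicle replicate 3 the list held 7 calls, 4 higher and 3 lower, with SLC7A5, PSAT1 and MTHFD1L added, all higher. SLC7A5, chosen after its value was seen, had overlapping groups and did not pass in the main fit (0.30, adjusted p = 0.0996 by edgeR). It was also called by limma-voom, with no low-count filter and with a replicate block.

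**Figure D5:**
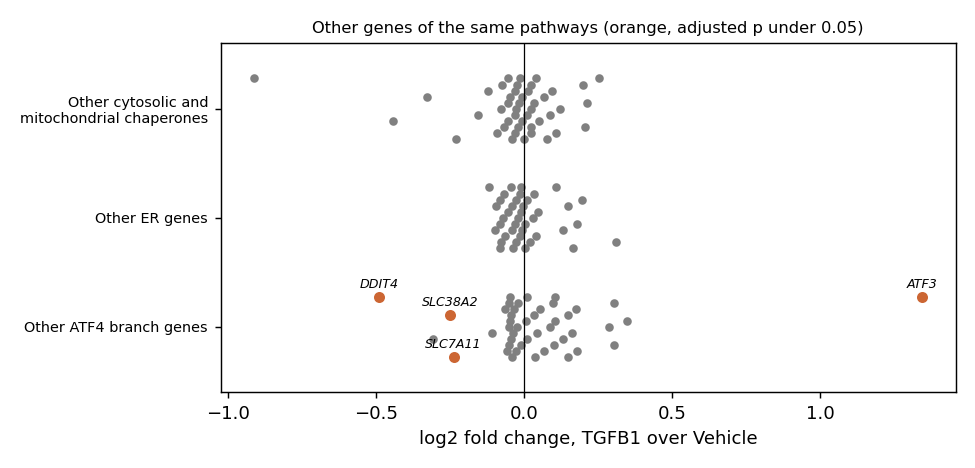
Log2 fold change (TGFB1 over Vehicle, 3 libraries each) of each tested gene in the 3 lists of other pathway genes, spread vertically for legibility, with genes past an adjusted p of 0.05 in orange and named. The calls are ATF3 at 1.34, DDIT4 at -0.49, SLC38A2 at -0.25 and SLC7A11 at -0.24, all in the ATF4 list, and most other genes lie near 0.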

How the data were processed

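The deposited values are raw read counts for each Ensembl gene ID in 6 libraries. Per the submitters' processing notes, the authors used cutadapt, TopHat2 2.1 and HTSeq with GRCh38. Which annotation release, counting mode and strand setting they used is not given in the sources used here. Symbols were matched by gene ID (56948 of 58051 rows), and exon lengths, overlaps and 50-base windows come from GENCODE 29, which need not be the release counted. RPKM is TMM-scaled CPM per kilobase of the union of a gene's exons. Promoters are RefSeq's, of GRCh38.p14. The 46 genes, the lists and the tests were chosen with earlier results of these data known. Genes kept by edgeR's filterByExpr (minimum count 10, minimum total 15; 16690 genes) were scaled by TMM and tested with edgeR 4.0.16's quasi-likelihood test (R 4.3.3, robust dispersion, group alone, Benjamini-Hochberg, threshold 0.05). The SE is the absolute log2 fold change divided by the square root of F, and 95% intervals use the fit's t distribution. On simulated data with 200 of 16690 genes changed, the test recovered 38% of genes changed 1.25-fold and 72% of those changed 1.5-fold (92% for 2-fold changes, 90% for 4-fold ones), and 8.18% of its 159 calls were of unchanged genes. Alternatives were DESeq2 size factors, total counts, 2 other filters, DESeq2 1.42.0, limma-voom (limma 3.58.1), a replicate block, leaving out each library in turn and a stricter threshold (0.01). Values per library are given for genes past the threshold, the factors and sensors, and the 2 most abundant genes per length of each group, and some others chosen after their values were seen. From each other list, genes past the threshold are named, or the 2 most abundant, of which 1 is not reported here.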

Additional observations from a re-analysis of the deposited data

How the results depend on the processing

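Of the 46 genes, the 3 calls were kept with DESeq2 size factors, a stricter filter (50 counts or more in 3 libraries) and DESeq2. Total-count scaling left 1 call (0 cytosolic), limma-voom and a threshold of 0.01 left 0 (0 cytosolic, 0 in the ATF4 branch), and with no low-count filter 3 were called, HSPB1 in place of HSPA1A. No filter also gave 1 call in each of the other chaperone and other ER lists (PTGES3 and P4HB). Leaving out 1 library gave 365 to 923 calls over all genes, 0 to 9 among the 46, 0 to 5 among the cytosolic, 0 to 1 among the mitochondrial, 0 to 1 among the ER and 0 to 2 among the ATF4 branch genes, and in the other lists 0 to 1 (chaperones), 0 to 1 (ER) and 3 to 7 (ATF4 branch). The cause was not tested. Without a low-count filter the log2 fold change turned positive for DNAJA1 (0.0015), HSP90B1 (0.009), DNAJB9 (0.0025), PDIA6 (0.0043) and ATF4 (0.007), and with total counts for HSP90B1 (0.006), PDIA6 (0.0011) and ATF4 (0.0033), none of them past the threshold. When 1 library was left out, the log2 fold change crossed 0 for 20 genes, 0 of them called in any such fit: HSPA2 (-0.379 to 0.067), HSPH1 (-0.041 to 0.050), HSP90AA1 (-0.052 to 0.084), DNAJA1 (-0.044 to 0.012), DNAJB4 (-0.206 to 0.021), XBP1 (-0.022 to 0.107), ERN1 (-0.110 to 0.032), HSPA5 (-0.020 to 0.102), HSP90B1 (-0.020 to 0.015), HSPA13 (-0.105 to 0.018), HYOU1 (-0.065 to 0.009), DNAJB9 (-0.037 to 0.031), PDIA4 (-0.023 to 0.050), PDIA6 (-0.025 to 0.017), CRELD2 (-0.055 to 0.016), HERPUD1 (-0.016 to 0.076), EDEM1 (-0.019 to 0.103), SEL1L (-0.114 to 0.006), ATF4 (-0.027 to 0.025) and SESN2 (-0.015 to 0.228). Genes of low count, CRYAB, HSPA2, HSPB8 and VLDLR among them, are limited by depth.

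Replicate numbers did not pair the libraries: deviations of same-numbered libraries from their group means correlated at -0.0296, 0.0418 and 0.00761 across genes. With a replicate block 2 of the 46 were called, 1 of them cytosolic (BAG3), 1 in the other ER list and 6 in the other ATF4 list, and 601 over all genes; HSPA1A stood at an adjusted p of 0.05.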
